A study of Mus musculus with 9 samples.

Results

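The 10 genes described here encode small leucine-rich proteoglycans of the extracellular matrix: Dcn (decorin), Lum (lumican), Bgn (biglycan), Fmod (fibromodulin), Ogn (osteoglycin), Prelp, Omd (osteomodulin), Aspn (asporin), Epyc (epiphycan) and Chadl (chondroadherin-like). They were taken by gene symbol from 2 deposited tables of the mouse cochlea, the second with 25579 symbols, which held all 10, and the first with 1410 symbols, which held 3 (Chadl, Prelp and Fmod). RNA came from the cochlear membranous labyrinth, the soft tissue inside the bony shell, of mice at postnatal day 28. The groups, with 3 libraries each, were treated homozygous (hMPZL2Q74X/Q74X, a humanized MPZL2 gene with a nonsense variant, which at postnatal day 2 received, through the round window membrane, AAV-ie-ABE8eWQ-SpRY:sgRNA3, a viral vector for an adenine base editor and its guide RNA), homozygous (hMPZL2Q74X/Q74X without that injection) and Mpzl2 WT. The sources used here do not give the strain, the editor's promoter or any vehicle injection of the other groups. The first table holds homozygous and WT libraries and the second treated homozygous and homozygous libraries, so treated homozygous libraries were not compared with WT.

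Small leucine-rich proteoglycans are secreted proteins built around a curved stack of leucine-rich repeats, and many carry chondroitin, dermatan or keratan sulfate chains. They bind collagen and set how fibrils pack, and several bind growth factors of the TGF-beta family or cell surface receptors. The cochlea holds collagen-rich tissue in the spiral ligament, the spiral limbus and the bony shell, and Epyc is known from cochlear supporting cells, and mice without it lose hearing. By sequence, Dcn, Bgn and Aspn belong to class I of the family, Lum, Fmod, Prelp and Omd to class II, Epyc and Ogn to class III, and Chadl to the chondroadherin group.

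Promoters are shown for the member that passed the test in both comparisons, Chadl, and for the 2 members with the most negative log2 fold changes in treated homozygous libraries, Fmod and Omd. Each is the 250 bases before the gene's start, 5′ to 3′ on the gene's strand, from RefSeq on GRCm38.p6, an older build than the GRCm39 named for these data. Entries were matched by symbol for 8 of the 10 members, without Dcn and Lum. Capitals mark matches on either strand to ACAAT, a core of SOX binding sites, TGTGGT, a core of RUNX binding sites, or TATAAA, the TATA box.
Chadl, chr15:81697288-81697537, minus strand: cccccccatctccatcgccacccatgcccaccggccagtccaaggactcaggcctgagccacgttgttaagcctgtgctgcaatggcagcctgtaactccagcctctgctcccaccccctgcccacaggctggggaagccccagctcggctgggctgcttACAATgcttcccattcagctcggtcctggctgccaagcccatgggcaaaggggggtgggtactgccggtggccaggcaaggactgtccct
Fmod, chr1:134037004-134037253, plus strand: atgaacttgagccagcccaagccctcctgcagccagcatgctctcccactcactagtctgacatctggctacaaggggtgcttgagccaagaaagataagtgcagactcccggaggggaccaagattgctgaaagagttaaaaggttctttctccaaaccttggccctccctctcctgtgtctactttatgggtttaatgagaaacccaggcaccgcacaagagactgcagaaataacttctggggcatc
Omd, chr13:49582212-49582461, plus strand: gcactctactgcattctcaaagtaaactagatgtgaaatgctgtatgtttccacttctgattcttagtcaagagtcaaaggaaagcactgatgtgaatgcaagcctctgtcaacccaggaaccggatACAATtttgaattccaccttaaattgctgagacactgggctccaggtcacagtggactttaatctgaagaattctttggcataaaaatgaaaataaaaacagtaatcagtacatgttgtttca
Chadl held 1 ACAAT match at -90 to -86 from its start and Omd 1 at -123 to -119, and the Fmod window held none of the 3 motifs. No match overlapped another in these windows. Of 32851 mouse promoters of the same length, 27.7% held ACAAT, 14% TGTGGT and 12.4% TATAAA. GC content was 65.2% for Chadl, 51.2% for Fmod and 38.4% for Omd.

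The values were TPM, a relative transcript abundance scaled for transcript length and library total, and the sequencing depth is unknown. All 14 cochlear tissue markers were tested in the second table. Among them Coch, a protein of spiral ligament and limbus, was at 3904 TPM in treated homozygous and 7149 TPM in homozygous libraries. Tecta had the lowest level, at 0.60 and 1.2 TPM. The log2 fold change, treated homozygous over homozygous, was positive for 8 of the 14 and negative for 6, with a median of 0.67. Over all tested genes 61% were positive. Treated homozygous libraries 1 and 2 were close to identical, with a spread of log2 differences of 0.438 for genes at 1 to 5 TPM, against 0.827 to 0.935 between homozygous libraries and 1.47 between either of them and treated homozygous library 3. They were counted as 1 sample through their mean, so the treated homozygous group had 2 samples. The 15 forebrain neuron markers summed to 2670, 2650 and 2620 TPM in treated homozygous libraries 1, 2 and 3 and to 1290, 2260 and 871 TPM in homozygous libraries. Much of these sums was Ppp1r1b, at 1717 ± 878 TPM in treated homozygous and 1239 ± 736 TPM in homozygous libraries (SD, n = 2 and 3). Of the 15 markers, 15, 15 and 8 reached 1 TPM in the treated homozygous libraries, against 6, 7 and 6 in the homozygous libraries. The 8 of these markers under 1 TPM in every homozygous library, a subset picked on these values, summed to 886, 866 and 10.7 TPM in treated homozygous libraries 1, 2 and 3 and to 1.89, 1.06 and 2.29 TPM in homozygous libraries. Among the 8, Camk2a was at 745, 722 and 8.13 TPM in treated homozygous and 0.47 to 0.55 TPM in homozygous libraries. Mpzl2 was at 16.7, 23.2 and 12.5 TPM in homozygous libraries and at 33.6, 43.9 and 49.0 TPM in WT libraries, and in the second table at 5.64, 5.62 and 16.3 TPM in treated homozygous and 17.4, 24 and 13.1 TPM in homozygous libraries. Transcripts of the humanized gene may be missed by the mouse annotation, and these Mpzl2 levels are no measure of editing.

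In the second table, Epyc, Bgn and Dcn carried most of the family's RNA. Together they made up 83.9%, 83.8% and 81.8% of the summed TPM of the 10 members in treated homozygous libraries and 80.4%, 83.2% and 84.5% in homozygous libraries. The sum itself was 1039, 1037 and 1378 TPM in treated homozygous libraries 1, 2 and 3, against 1445, 1639 and 1533 TPM in homozygous libraries. Every treated homozygous library lay below every homozygous library, and library 3 lay nearest to them.

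**Figure D1:**
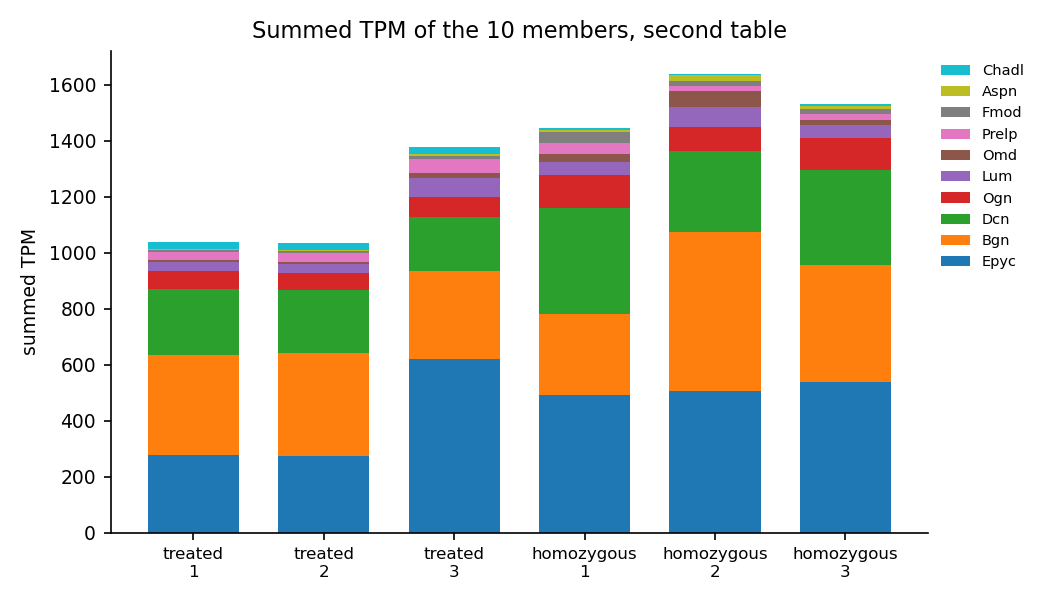
Bars show the summed TPM of the 10 members in each library of the second table, split by gene, with treated homozygous libraries left of homozygous libraries. The treated homozygous bars reach 1039, 1037 and 1378 TPM and the homozygous bars 1445, 1639 and 1533 TPM.

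Ordered by mean level in homozygous libraries, Epyc stood at 512 ± 24 TPM, Bgn at 426 ± 138 TPM and Dcn at 335 ± 44.6 TPM (SD, n = 3 each), and the ranges of neighbours in this order overlapped. Ogn followed at 105 ± 16.9 TPM and Lum at 55.8 ± 13.6 TPM, each with a range apart from its neighbour above. Omd, Prelp, Fmod and Aspn, at 34.7, 26.0, 25.1 and 13.0 TPM, overlapped one with the next. Chadl was the lowest, at 6.11 ± 1.43 TPM (SD, n = 3), and lay apart from Aspn. In treated homozygous libraries Chadl stood seventh of the 10, at 25.4 ± 0.94 TPM (SD, n = 2), with a range apart from its neighbours Prelp and Omd. Epyc ranked 467, 486 and 144 among all symbols in treated homozygous libraries 1, 2 and 3, and 168, 173 and 145 in the homozygous libraries.

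**Figure D2:**
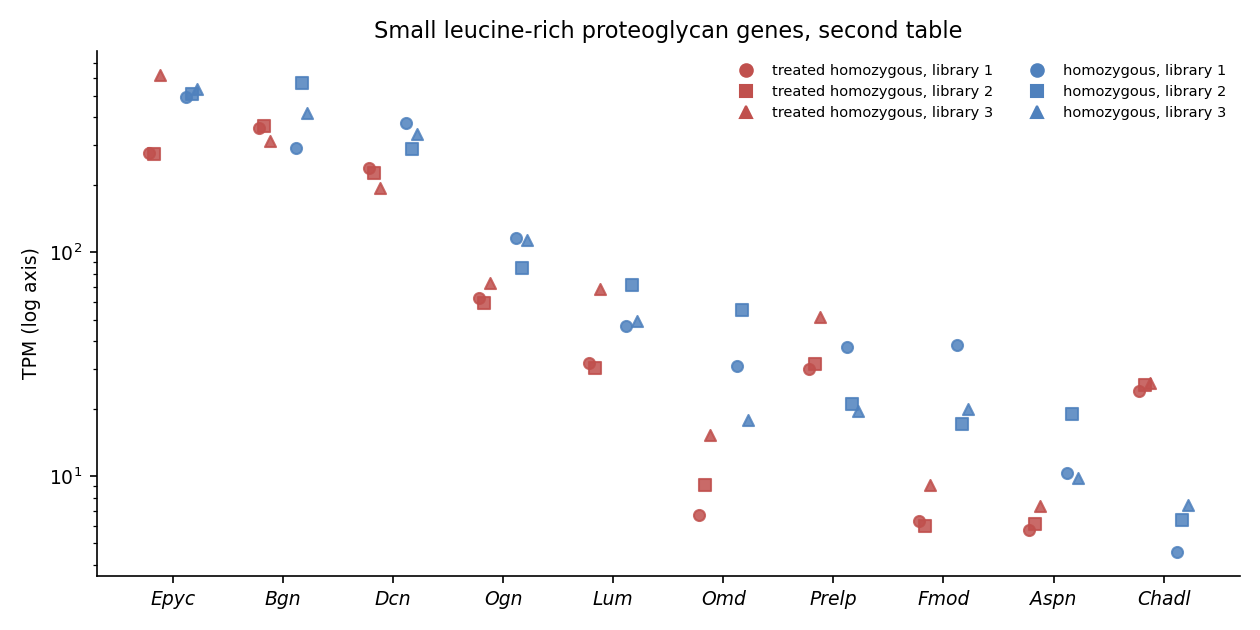
Each point is the TPM of 1 library on a log axis, for each member in the second table, with treated homozygous libraries (red) left of homozygous libraries (blue) and the libraries marked by shape. Chadl is at 23.9 to 26.0 TPM in treated homozygous and 4.59 to 7.42 TPM in homozygous libraries, and treated homozygous libraries 1 and 2 lie almost on each other.

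Within the homozygous group the members differed in how steady they were. The highest library was 1.1 times the lowest for Epyc, 1.31 times for Dcn and 1.35 times for Ogn, and 3.13 times for Omd, 2.24 times for Fmod and 1.94 times for Bgn. The median of this ratio over 12608 genes with a mean of at least 5 TPM was 1.36. Homozygous library 2 was the highest for Bgn, Omd, Aspn and Lum. Markers of osteoblasts and osteocytes summed to 943 TPM in that library, against 251 and 271 TPM in homozygous libraries 1 and 3. Sums of fibroblast markers (1080, against 598 and 609 TPM) and of fibril collagens (2750, against 1830 and 1680 TPM) were also highest there. That of other proteoglycans was not, at 1560 against 1650 and 1570 TPM. The part of these genes in the members' values was not tested. Homozygous library 1 was the highest for Fmod, Prelp, Dcn and Ogn. In the treated homozygous group library 3 was the highest for 8 of the 10 members, all but Dcn and Bgn.

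Homozygous cochleae were set against WT cochleae first, which was possible for 3 members. Of these 0 passed as higher and 1 as lower by limma, and 2 had an unadjusted p under 0.05, while of the 1348 genes tested there, 51.3% passed, 17.9% as higher and 33.5% as lower, and 75.7% had an unadjusted p under 0.05. The groups did not overlap for 2 members, 1 higher and 1 lower, against 77.1% of all tested genes, 31.5% higher and 45.6% lower. The log2 fold change was positive for 2 members and negative for 1, against 46% and 54% of all tested genes. Chadl, a collagen-binding protein first known from cartilage, was lower in homozygous libraries, with 3.91, 5 and 7.84 TPM, against 10.7, 16.3 and 16.3 TPM in WT libraries. The groups did not overlap, and limma gave a log2 fold change of -1.25 ± 0.28 (SE; adjusted p = 0.0199). Leaving out homozygous replicate 1, WT replicate 2 or WT replicate 3 put the adjusted p at 0.0522, 0.0581 and 0.061. How genes were selected into this table is unknown here. Coch had a limma unadjusted p of 0.259 and adjusted p of 0.26, so almost all genes tested there had p at or below 0.26. Genes with a larger p were nearly absent, and a call in this table is no evidence independent of the selection. Under median-of-ratios scaling the table had 465 higher and 216 lower calls in place of 241 and 451, while Chadl stayed lower, at -1.13 (limma adjusted p = 0.0244).

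Prelp and Fmod, neighbours on chromosome 1, lay the other way without passing. Prelp, which binds collagen and heparan sulfate, was at 27.1, 15.8 and 14.2 TPM in homozygous libraries and 10.1, 14.4 and 8.06 TPM in WT libraries, and the lowest homozygous value lay just under the highest WT value. Its log2 fold change was 0.74 (95% interval 0.07 to 1.40, limma adjusted p = 0.0562), and it passed under median-of-ratios scaling (adjusted p = 0.0404) and without homozygous replicate 3 (adjusted p = 0.0485). Fmod, which binds collagen fibrils in tendon and other dense tissue, was at 27.3, 12.2 and 13.9 TPM in homozygous and at 11.4, 12.0 and 11.8 TPM in WT libraries. Homozygous library 1 alone stood well above WT for Fmod (log2 fold change 0.48, 95% interval -0.17 to 1.13, limma adjusted p = 0.131), and without it the log2 fold change was 0.14. The same homozygous libraries had other values in the second table: the first table gave 0.7 to 0.751 of the second for Fmod and Prelp and 0.789 to 1.06 for Chadl, where the median over all shared genes was 0.858 to 0.873.

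**Figure D3:**
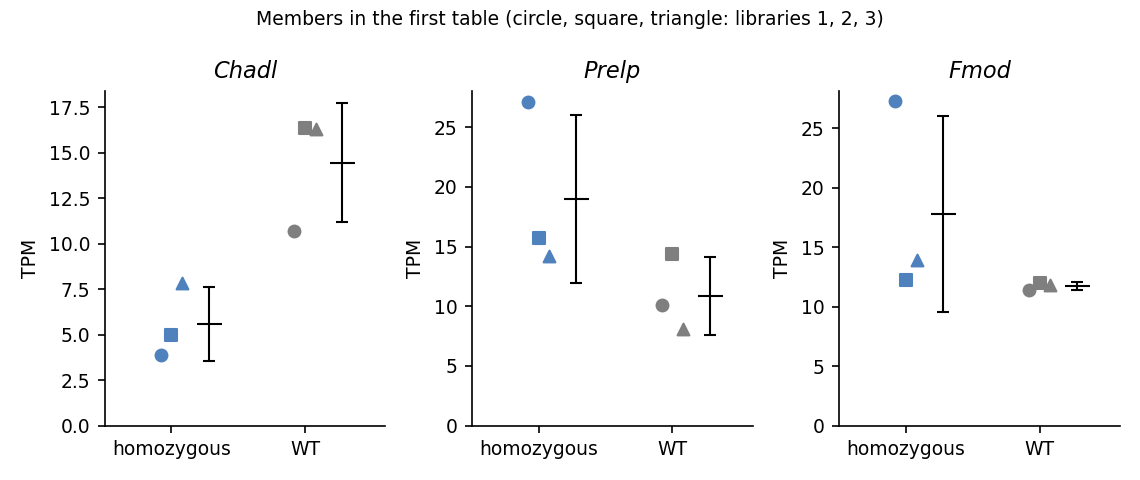
Points are the TPM of single libraries in the first table for Chadl, Prelp and Fmod, homozygous left of WT, and the bars beside them give the mean and SD of 3 libraries. For Chadl the homozygous libraries lie at 3.91 to 7.84 TPM and the WT libraries at 10.7 to 16.3 TPM, and for Fmod 1 homozygous library at 27.3 TPM stands apart from the others.

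Treated homozygous cochleae were then set against homozygous cochleae, the comparison that bears on the vector injection. Of the 10 members, all tested, 1 rose and 0 fell by limma, and 5 had an unadjusted p under 0.05; over all 17102 tested genes 4.41% passed, 3.44% rose, 0.965% fell and 26.7% had an unadjusted p under 0.05. The log2 fold change was negative for 8 of the 10 and positive for 2, with a median of -0.47, against 39% and 61% of all tested genes and a median of 0.20. Under median-of-ratios scaling the median of all tested genes was 0.03 and that of the members -0.66, each member kept its sign, and the calls over all genes were 402 higher and 231 lower in place of 589 and 165. The groups did not overlap for 1 member as higher and 5 as lower, where 29.2% and 15.8% of all tested genes did so, 45% in all. In bulk tissue fewer cells of a type and less RNA per cell cannot be told apart. These data share the homozygous libraries with the first comparison, so the values of both are given side by side without a test between them.

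Chadl was the member that rose. It was at 23.9, 25.5 and 26.0 TPM in treated homozygous libraries 1, 2 and 3, against 4.59, 6.33 and 7.42 TPM in homozygous libraries. The log2 fold change was 1.91 with a standard error of 0.33 and a 95% interval of 1.13 to 2.69 (limma adjusted p = 0.0336). The rise was as large in treated homozygous library 3 alone, with a log2 fold change of 1.95 (adjusted p = 0.0741), as in libraries 1 and 2, with 1.87 (adjusted p = 0.0346). Without homozygous replicate 1, 2 or 3 the log2 fold change was 1.75, 1.94 and 2.04, with adjusted p = 0.169, 0.0792 and 0.129. In the mouse annotation Chadl overlaps L3mbtl2, which lies on the opposite strand, and the strand setting of the quantification is unknown here. L3mbtl2, a chromatin protein gene, was at 62.0, 57.0 and 16.8 TPM in treated homozygous and 11.8, 17.7 and 19.3 TPM in homozygous libraries, and its part in the Chadl values was not tested. The first comparison had given 3.91 to 7.84 TPM in homozygous and 10.7 to 16.3 TPM in WT libraries for Chadl.

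The members of class I were lower or overlapped. Dcn, which binds collagen and TGF-beta, was at 237, 227 and 194 TPM in treated homozygous libraries and at 378, 289 and 337 TPM in homozygous libraries, with no overlap (log2 fold change -0.65, 95% interval -1.11 to -0.18, limma adjusted p = 0.0998). Bgn, abundant in bone and also a ligand of Toll-like receptors, was at 357, 367 and 312 TPM in treated homozygous and at 292, 567 and 419.5 TPM in homozygous libraries. Its groups overlapped, and the log2 fold change was -0.29, with a 95% interval from -0.99 to 0.41 (limma adjusted p = 0.565). Aspn, which binds collagen and is known from cartilage and periodontal ligament, was at 5.71, 6.13 and 7.31 TPM in treated homozygous and at 10.3, 18.95 and 9.85 TPM in homozygous libraries (log2 fold change -0.83, limma adjusted p = 0.234).

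Class II held the most negative and also a positive value. Fmod was at 6.30, 5.98 and 9.13 TPM in treated homozygous libraries, against 38.3, 17.1 and 19.9 TPM in homozygous libraries, with no overlap (log2 fold change -1.53, 95% interval -2.53 to -0.54, limma adjusted p = 0.081). Omd, known from mineralized bone, was at 6.72, 9.14 and 15.3 TPM in treated homozygous and at 30.9, 55.4 and 17.7 TPM in homozygous libraries (log2 fold change -1.42, limma adjusted p = 0.143). The groups of Omd came close, at 15.3 TPM for the highest treated homozygous and 17.7 TPM for the lowest homozygous library. Lum, known for ordering collagen fibrils in the cornea, was at 31.9, 30.5 and 68.2 TPM in treated homozygous and at 46.9, 71.4 and 49.2 TPM in homozygous libraries. Libraries 1 and 2 lay below and library 3 within the homozygous range, and the sign turned with it: -0.79 in libraries 1 and 2 (adjusted p = 0.12) and 0.31 in library 3 (adjusted p = 0.516), with -0.24 over both samples (limma adjusted p = 0.709). Prelp was at 29.95, 31.7 and 51.4 TPM in treated homozygous and at 37.5, 21.0 and 19.6 TPM in homozygous libraries, and its groups overlapped (log2 fold change 0.65, 95% interval -0.23 to 1.54, limma adjusted p = 0.303).

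In class III, Ogn was lower in every treated homozygous library and Epyc differed between the treated samples. Ogn, a small keratan sulfate proteoglycan of bone and connective tissue, was at 62.5, 59.1 and 73.1 TPM in treated homozygous libraries and at 115, 85.4 and 114 TPM in homozygous libraries, without overlap (log2 fold change -0.63, 95% interval -1.14 to -0.13, limma adjusted p = 0.124). Epyc was at 278, 275 and 621 TPM in treated homozygous libraries 1, 2 and 3 and at 491.0, 507 and 538 TPM in homozygous libraries. Libraries 1 and 2 lay below every homozygous library and library 3 above all of them. The log2 fold change was -0.30 over both samples (95% interval -1.11 to 0.50, limma adjusted p = 0.6), -0.89 in libraries 1 and 2 (adjusted p = 0.0321) and 0.28 in library 3 (adjusted p = 0.336), where the single sample was taken to vary like the other group.

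**Figure D4:**
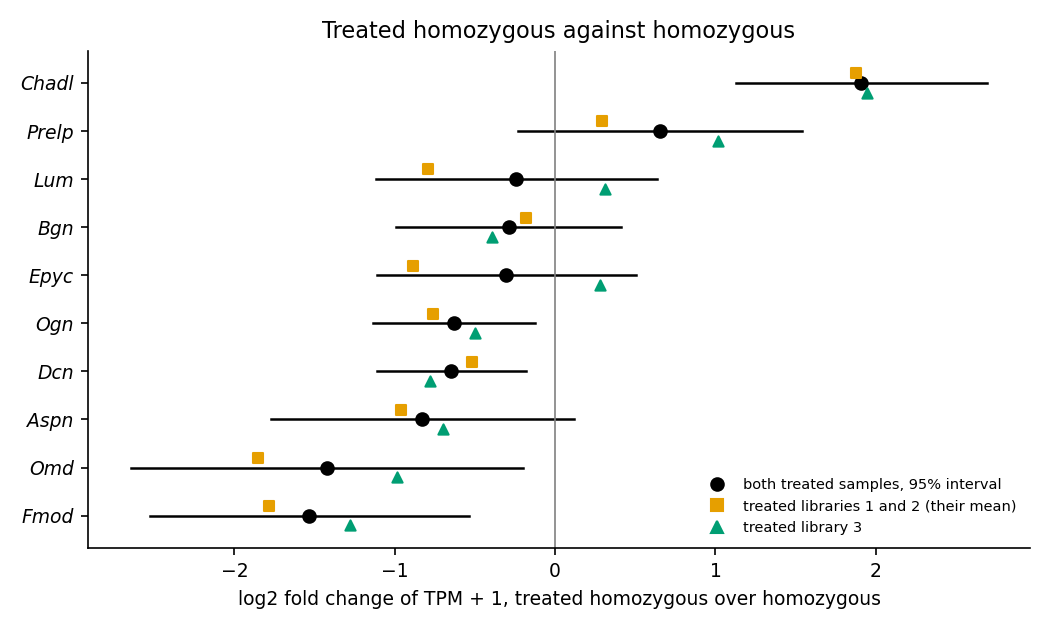
Black points are the log2 fold changes of TPM + 1, treated homozygous over homozygous, with the 95% interval of the limma fit as a line; squares give treated homozygous libraries 1 and 2 as their mean and triangles library 3. Chadl lies at 1.91 with the samples close together, and Epyc and Lum lie on either side of 0 in the samples, at -0.89 and 0.28 for Epyc.

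Most members lie in gene clusters, and neighbours could differ. On chromosome 10 Dcn, Lum, Kera and Epyc follow each other as protein-coding genes, and Epyc, Lum and Kera were higher in treated homozygous library 3 than in libraries 1 and 2 while Dcn was lower there. Kera, the gene of the corneal proteoglycan keratocan, was at 0.23, 0.22 and 4.09 TPM in treated homozygous and at 1.45, 1.41 and 0.41 TPM in homozygous libraries. On chromosome 13 Ecm2, Aspn, Omd and Ogn follow each other. Each was lower in every treated homozygous library than in any homozygous library. With treated homozygous libraries 1 and 2 as their mean, 15.8% of all tested genes were lower without overlap. Ecm2, picked after its values were seen, was at 8.54, 8.04 and 8.85 TPM in treated homozygous and 16.6, 11.9 and 15.1 TPM in homozygous libraries. Of these 4 genes 0 passed limma, and the adjusted p of Ecm2 was 0.209. On chromosome 1 the neighbours Prelp and Fmod had log2 fold changes of opposite sign in this comparison, 0.65 and -1.53.

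Markers of bone were lower beside these members. Of 12 tested osteoblast and osteocyte markers 2 fell, where 0.965% of all tested genes did. All 12 had a negative log2 fold change, against 39% of all tested genes, and their median was -1.88. They summed to 141, 138 and 91.6 TPM in treated homozygous libraries and to 251, 943 and 271 TPM in homozygous libraries. Mepe, an osteocyte gene, was listed at 0, 0 and 0.0168 TPM in treated homozygous and at 10.5, 19.4 and 6.31 TPM in homozygous libraries, and Ibsp, the gene of bone sialoprotein, fell by 2.79 on the log2 scale (limma adjusted p = 0.0332). Macrophage markers summed to 506, 492 and 566 TPM in treated homozygous and 102, 148 and 110 TPM in homozygous libraries, and mitochondrially encoded genes took 2.17% to 6.16% and 10.7% to 13.6% of TPM. The part of these differences in the members' values was not tested. The part of the forebrain neuron markers given above in the members' values was not tested.

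The genes around the family, here and in the next paragraph, were read beside the shares over all tested genes of the second table. Of those, 4.41% passed, 3.44% rose, 26.7% had an unadjusted p under 0.05 and 61% had a positive log2 fold change. Of 17 collagens of fibrils and their surfaces, which these proteoglycans bind, 0 passed limma, 5 had an unadjusted p under 0.05, and the median log2 fold change was -0.41. The 2 with the highest mean were Col11a2, at 689 ± 71.2 TPM in treated homozygous and 525 ± 179 TPM in homozygous libraries, and Col2a1, at 208 ± 55.5 and 319 ± 48.6 TPM (SD, n = 2 and 3). Of 25 tested enzymes of glycosaminoglycan chain synthesis 0 passed limma, 7 reached an unadjusted p under 0.05 and 21 had values above 0, the median being 0.45. B3gat3, which adds the last sugar of the linkage to the core protein, was at 129 ± 13.2 and 89.1 ± 10.6 TPM and Chst11, a chondroitin sulfotransferase, at 68.4 ± 19.8 and 73.2 ± 19.9 TPM in treated homozygous and homozygous libraries (SD, n = 2 and 3). Of 21 other proteoglycans 1 rose, which was Agrn, the gene of the heparan sulfate proteoglycan agrin, at 132 ± 7.57 TPM in treated homozygous (SD, n = 2) and 54.1 ± 1.22 TPM in untreated homozygous libraries (SD, n = 3; limma adjusted p = 0.0186).

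Of 13 tested proteases and inhibitors of the matrix 0 passed limma and 2 reached an unadjusted p under 0.05. Timp3 stood at 314 ± 16.5 and 325 ± 21.8 TPM and Timp2 at 305.5 ± 1.21 and 204 ± 24.6 TPM in treated homozygous and homozygous libraries (SD, n = 2 and 3). Among 17 ligands and receptors in signalling 0 passed limma, 6 reached an unadjusted p under 0.05, and the median was 0.54. Among them Lrp1, an endocytic receptor, was at 360.4 ± 9.65 and 169.5 ± 49.6 TPM (limma adjusted p = 0.0584), and Tgfbr2, a TGF-beta receptor, at 164 ± 25.7 and 120 ± 32 TPM (adjusted p = 0.275) in treated homozygous and homozygous libraries. Among 6 other tested members of the family 0 passed limma, and 1 reached an unadjusted p under 0.05. Podn, the gene of podocan, was at 46.9, 43.0 and 1.95 TPM in treated homozygous libraries and at 15.0, 10.4 and 1.49 TPM in homozygous libraries, so treated homozygous library 3 stood far from libraries 1 and 2.

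**Figure D5:**
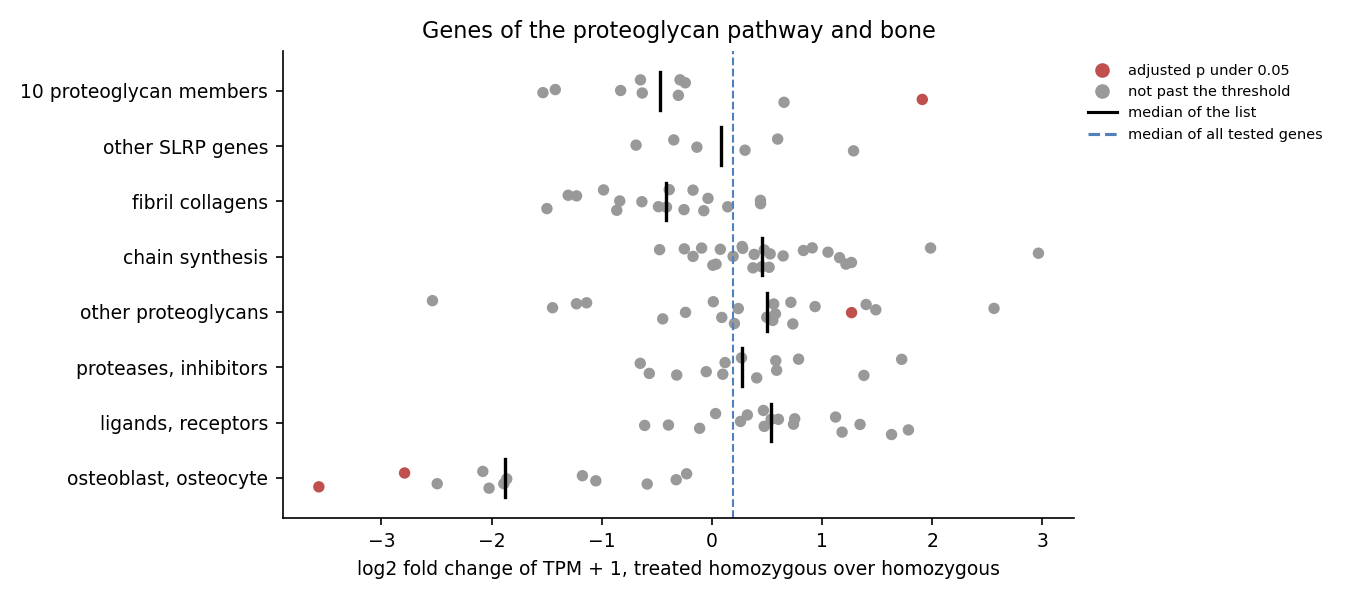
Each point is 1 gene, placed by its log2 fold change of TPM + 1, treated homozygous over homozygous, with the median of each list as a black bar and that of all tested genes as a dashed line at 0.20. The 10 members have a median of -0.47, the fibril collagens -0.41, the enzymes of chain synthesis 0.45 and the osteoblast and osteocyte markers -1.88, and red points passed the test.

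In the first table the same lists held fewer genes. Of all genes tested there 33.5% fell and 17.9% rose, 51.3% passing in all. Of 12 tested collagens of fibrils and their surfaces 12 fell, among them Col9a1, Col2a1 and Col3a1 with log2 fold changes of -2.36, -2.0 and -1.47. Chad, the gene of chondroadherin and the 1 other family member in the table, was at 10.3 ± 4.85 TPM in homozygous and 21.4 ± 3.07 TPM in WT libraries (SD, n = 3 each; log2 fold change -1.06, limma adjusted p = 0.0326). Of 9 other proteoglycans 4 fell, among them Hspg2, Agrn and Gpc3 with log2 fold changes of -0.60, -0.57 and -0.91, and of 3 enzymes of chain synthesis 1 fell, Xylt2, which starts the chain (-0.54). The proteases Mmp2 and Adamts5, the 2 tested of their list, fell with -0.78 and -0.55, and Igf1r and Met, the 2 tested of ligands and receptors, had values of 0.33 and 0.63 without passing (adjusted p = 0.0764 and 0.0694). Of 4 tested bone markers 3 fell, Dmp1, Ibsp and Bmp8a, with -1.31, -1.59 and -0.91, beside the lower Chadl and the higher values of Prelp and Fmod. As the selection of genes into this table is unknown, the direction of these counts has no independent support.

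By the root mean squared difference of centred log2(TPM + 1) over the 5 samples of the second table, among 13283 genes with a mean of at least 5 TPM, the genes nearest to Dcn were Sfr1, St13, Prkaa1, Prpf4b and Ubap2l, at 0.0437 to 0.0633. Those nearest to Epyc were Nipsnap3b, 1810058I24Rik, Lamtor5, Idua and Pigc, at 0.0338 to 0.0746. Within the family Ogn was the nearest to Dcn, at 0.176 and rank 421, and Lum the nearest to Epyc, at 0.217 and rank 296. Chadl was the farthest member from both, at 1.29 and 1.15.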

How the data were processed

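The authors deposited TPM values per gene symbol in 2 tables; per the submitters' processing notes kallisto 0.51.0 and the mouse build GRCm39 were used, and DESeq is named without a version. The sources used here do not give the annotation, the summing of transcripts, the strand setting or the choice of the first table's rows. Values were read as TPM because the libraries of the second table sum to 995747 to 996703; the first table sums to 120756 to 137436. TPM keeps no read counts, so depth is unknown and no count test was run. Each table was analysed within itself. Genes with at least 1 TPM in 3 or more libraries were tested as log2(TPM + 1) with limma 3.58.1 in R 4.3.3 (mean-variance trend, Benjamini-Hochberg adjustment over all tested genes, two-sided, threshold 0.05), so fold changes of low genes are understated. Treated homozygous libraries 1 and 2 entered as their mean. The titles call the libraries biological replicates; whether each is 1 animal is unknown here, and p-values measure the spread between these libraries. The genotype field of the labels counts upward from library to library, and groups were taken from the titles. The members and lists were chosen with earlier results of these data known. Named were all members, Mpzl2, up to 3 genes higher and 3 lower past the threshold per list (otherwise the 2 with the highest mean), and the 5 genes nearest Dcn and Epyc. Camk2a, Coch, Tecta, Kera, Ecm2, Podn, Podnl1 and L3mbtl2 were chosen after their values were seen. The test was tried on simulated data with 200 changed genes in each comparison. In the second, with 17102 genes, 9% of simulated log2 changes of 1 and 53% of those of 2 were recovered, with 4 false calls. In the first, with 1348 genes, 85% and 98% were recovered, with 12 false calls. The changed genes were a larger share of the first comparison, so these rates cannot be compared between the 2. Python 3.11.15 and pandas 2.3.3 were used. Alternatives were other pseudocounts, filters, scalings and fits, and each library left out.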

Additional observations from a re-analysis of the deposited data

How the results depend on the processing

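In the homozygous and WT libraries the number of members past the threshold was 1, and 2 under median-of-ratios scaling, where Prelp passed; leaving out each library in turn gave 0 to 2. In the treated homozygous and homozygous libraries it was 1; it was 0 without the filter (Chadl adjusted p = 0.0836), 0 with treated homozygous library 3 alone, and 4 with the treated homozygous libraries entered as 3 samples, where Chadl, Dcn, Fmod and Ogn passed and 3563 genes passed in all. Leaving out each library in turn gave 0 to 2 members and 63 to 2984 genes; the cause was not tested. With library 3 alone the log2 fold changes of Epyc (0.28) and Lum (0.31) turned sign. Chadl kept its direction under all alternatives run, with log2 fold changes of -1.49 to -1.06 and its call under 9 of 12 in the first comparison, and of 1.74 to 2.06 and its call under 10 of 15 in the second. Over all genes the second comparison called 754 genes, 134 without the filter and 479 without the trend; the first called 692, and 103 to 611 with a library left out. Rescaling without mitochondrially encoded genes gave 442 higher and 203 lower calls and a median of all genes of 0.08.

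Libraries of the same number did not deviate together (correlations of 0.049, -0.14 and -0.074 in the first table and 0.03, -0.146 and -0.117 in the second), so the numbers were not taken as pairs. With the replicate number as a block 1 member passed in each comparison, which was Chadl, and 343 and 1485 genes passed in all. Where an alternative left 1 sample in a group, limma took it to vary like the other group.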

Other observations

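Markers of macrophages were higher in treated homozygous libraries. Of 10 tested markers 6 rose, where 3.44% of all tested genes did, and all 10 had a positive log2 fold change, against 61%. The markers summed to 506, 492 and 566 TPM in treated homozygous and 102, 148 and 110 TPM in homozygous libraries. C1qc, C1qa and C1qb, which encode the chains of the complement protein C1q, rose with log2 fold changes of 3.01, 2.50 and 2.52 (limma adjusted p = 0.00825, 0.00908 and 0.0134).

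Otos, a gene of spiral ligament fibrocytes, fell to 944 ± 213 TPM in treated homozygous (SD, n = 2), against 2995 ± 558 TPM in homozygous libraries (SD, n = 3; limma adjusted p = 0.0346), and Otog, which encodes otogelin of the acellular membranes, rose with a log2 fold change of 2.05 (adjusted p = 0.0223). The spiral ligament markers summed to 11200, 11200 and 17000 TPM in treated homozygous and 22200, 25300 and 18700 TPM in homozygous libraries. Of the 10 tested 1 fell and 0 rose, where 0.965% and 3.44% of all tested genes did. The log2 fold change was negative for 7 and positive for 3 of them, against 39% and 61% of all tested genes. In the first table Slc4a11 and Apod rose and Otor and Emilin2 fell in homozygous libraries, of 6 tested spiral ligament markers. Of all genes tested there 17.9% rose and 33.5% fell.

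Of 12 fibroblast, 9 chondrocyte and 10 meningeal fibroblast markers tested in the second table, 0 passed limma, with 3, 5 and 4 at an unadjusted p under 0.05 and medians of -0.26, -0.64 and -1.06. Over all genes tested there 4.41% passed, 0.965% fell, 26.7% had an unadjusted p under 0.05 and the median was 0.20. The meningeal markers summed to 4760, 4840 and 14300 TPM in treated homozygous libraries and to 12200, 14700 and 8030 TPM in homozygous libraries, and most of each sum was Ptgds, at 4540, 4617 and 14180 TPM in treated homozygous and 11890, 14510 and 7861 TPM in homozygous libraries. Of the 10 tested meningeal markers 6 were lower without overlap, where 15.8% of all tested genes were, and 9, 9 and 6 of the 11 reached 1 TPM in treated homozygous libraries, against 10, 11 and 10 in homozygous libraries. Of 5 tested muscle markers 1 fell, Tnnc2, listed at 0 in the treated homozygous libraries. Of 15 forebrain neuron markers 9 were tested, and of these 0 passed limma and 2 reached an unadjusted p under 0.05. A positive log2 fold change was found for 8 of the 9, and that of Camk2a was 5.76 (limma adjusted p = 0.0881). Markers present only in treated homozygous libraries 1 and 2 cannot pass the filter of 1 TPM in 3 libraries. Those libraries also counted as 1 sample, so the lack of calls cannot show that the forebrain markers were alike between groups. Ppp1r1b and Slc17a7 were at 1717 ± 878 and 308.5 ± 214 TPM in treated homozygous and 1239 ± 736 and 157.5 ± 22.8 TPM in homozygous libraries (SD, n = 2 and 3). In the first table, among the tested markers, 2 of 4 fibroblast, 3 of 5 chondrocyte and 1 of 2 forebrain markers fell in homozygous libraries, 2 of 4 cochlear markers fell (Oc90 and Tectb), and Ptgds rose, of 2 meningeal markers. Of all genes tested there 33.5% fell and 17.9% rose.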
